A study of Homo sapiens with 6 samples.

Results

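The genes described here are 34 human genes for peroxisome biogenesis, for peroxisomal lipid metabolism and for oxidases that release hydrogen peroxide, taken by name from the 23686 genes in the count files. Of these, 31 had at least 10 reads in at least 3 of the 6 libraries, and all 31 entered the test across 14582 genes. The other 3 members, ACOX2, DAO and DDO, are given by their reads. RNA came from HEK293 cells, an established human embryonic kidney line, that carried green fluorescent protein (GFP). The co-culture group (labelled ROS-co-cultured) held 3 libraries of GFP-positive cells that shared a culture for 10 h with DAAO-carrying HEK293 cells, the source of reactive oxygen species, and the control group (labelled Wt) held 3 libraries of GFP-positive cells. Both groups were sorted for GFP. The name DAAO usually stands for a D-amino acid oxidase, and its substrate D-alanine was given at 25 µM, but the 6 samples carry 1 and the same treatment text. Whether the controls also received D-alanine or grew beside partner cells is therefore not known. Nothing in the labels says that the 3 libraries of a group came from separate cultures, so p-values measure only the spread between these libraries.

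Peroxisomes are organelles bounded by a single membrane that shorten very long and branched fatty acids, start the synthesis of ether lipids and contain both enzymes that make hydrogen peroxide and catalase, which breaks it down. Their proteins are made in the cytosol. Receptors of the peroxin (PEX) family carry them to a docking complex in the membrane, and the receptors are then marked with ubiquitin and pulled out again for reuse. DAO is the human D-amino acid oxidase, a peroxisomal enzyme of kidney and liver that acts on D-alanine and releases peroxide. The comparison asked how neighbours that make peroxide affect the transcripts of GFP-positive cells next to them.

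The libraries held 19091085 to 36250314 reads assigned to genes on the reverse strand, and the 34 genes took 0.151% to 0.160% of them. A median of 0.127% and 0.216% of reads over well-read genes lay on the unexpected strand in co-culture libraries 2 and 3, against 1.59% to 1.79% in co-culture library 1 and the 3 controls. The share of reads that map to several places was 8.42% for co-culture library 1 and 6.48% to 7.03% for the others. All 9 marker genes of the HEK293 line had at least 10 reads in 3 libraries, and their summed level was 1803 to 1876 CPM (reads of a gene scaled to the size of the library) in the controls and 2163 to 2373 CPM in co-culture. Among them VIM rose (log2 fold change 0.40, adjusted p 0.00793 in edgeR). Of 6 liver and proximal tubule markers, 2 had that many reads. The sum over all 6 was 64.0 to 72.9 CPM in the controls and 58.2 to 61.1 CPM in co-culture. Of 6 fibroblast and endothelial markers, 3 passed, and all 6 summed to 44.7 to 59.3 against 49.1 to 53.6 CPM. That sum holds genes of both directions, since LUM fell (log2 fold change -0.67, adjusted p 0.0293 in edgeR), while COL3A1 stood at -0.95 (adjusted p 0.159) and COL1A1 at 0.28 (adjusted p 0.131). Of 5 blood cell markers, 1 passed and 1 (CD3E) had 0 reads, and all 5 summed to 1.82 to 2.11 against 1.35 to 1.81 CPM. The part of these differences in the results was not tested.

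A pair of promoters is shown for the sequence behind 2 of the members, CAT as the gene for the peroxide-removing enzyme and GNPAT as the member that stood nearest the test's threshold. Each run gives the 250 bases before the annotated start in RefSeq (GRCh38.p14), 5′ to 3′ along the gene. CAT lies at chr11:34438684-34438933 and GNPAT at chr1:231240962-231241211, both on the plus strand. Capitals mark CCAAT and GGGCGG on either strand (ATTGG and CCGCCC on the other).
CAT: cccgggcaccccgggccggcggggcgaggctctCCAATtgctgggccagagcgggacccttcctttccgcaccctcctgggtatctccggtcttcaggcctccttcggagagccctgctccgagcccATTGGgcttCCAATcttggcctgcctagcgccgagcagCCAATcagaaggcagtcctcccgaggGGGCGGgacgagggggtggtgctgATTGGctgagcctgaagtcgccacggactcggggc
GNPAT: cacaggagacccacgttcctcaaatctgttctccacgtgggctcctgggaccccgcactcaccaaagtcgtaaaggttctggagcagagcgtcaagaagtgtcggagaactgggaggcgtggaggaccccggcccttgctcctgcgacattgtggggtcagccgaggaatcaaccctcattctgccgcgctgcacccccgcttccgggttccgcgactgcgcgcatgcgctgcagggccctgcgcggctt
The CAT window held CCAAT 5 times and GGGCGG 1 time, and the GNPAT window held neither. RefSeq promoters were found for 28 of the 34 members, and for 22 of these the bases after the start were found in a GENCODE release 29 transcript. The first listed promoter was taken for each member. The 35116 promoters set beside them are all entries, in which a gene can occur more than once. CCAAT was present in 11 of them (39.3%) and in 32% of all 35116 promoters, and GGGCGG in 17 (60.7%) and in 42.6%. AGGTCA, the core site of the receptors that drive peroxisome proliferation, was present in 3 members (10.7%) and in 12.1% of all promoters, and 2 copies of it in a row with 1 base between them in 0 members and 0.0171% of all. The core of the antioxidant response element, TGACNNNGC, was present in 4 members (14.3%) and in 10.9% of all promoters. Both strands were searched, and these matches only describe the letters in the windows.

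The peroxisome genes changed little. By the quasi-likelihood test of edgeR, adjusted after Benjamini and Hochberg, 0 of the 31 tested members had an adjusted p under 0.05, where 4.83% of all tested genes did (2.66% higher and 2.17% lower). At an unadjusted p under 0.05 there were 8 members, 1 higher and 7 lower in co-culture, which is 25.8% of them beside 23.2% of all genes (11.7% higher and 11.5% lower). DESeq2 called 1 member, GNPAT, where it called 7.28% of all genes, and limma-voom called 0 members and 4.63% of all genes. The CPM of the groups did not overlap for 13 members (41.9%), 6 higher and 7 lower, beside 29.3% of all genes (14.3% higher and 15.0% lower). The median log2 fold change of the 31 members was -0.05, that of all genes was 0.00, and the members ranged from -0.31 to 0.23. The 95% intervals of the fold change were not adjusted for the number of genes. For 27 of the 31 members the interval lay within a 1.5-fold change in either direction, and for 30 within a 2-fold change. Of all 14582 tested genes, 10952 and 13245 had intervals within these bounds. Small changes were thus no trait of the members. The median size of the log2 fold change, without its sign, was 0.15 for them and 0.13 for all genes. The count of members depended on 1 control library. Without control 1, which leaves 2 controls, 8 members passed (3 higher, 5 lower, 25.8%) and 20.8% of all genes did. In no other fit that left out a library did a member pass. The plot of changes by role shows the small size of the differences.

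**Figure D1:**
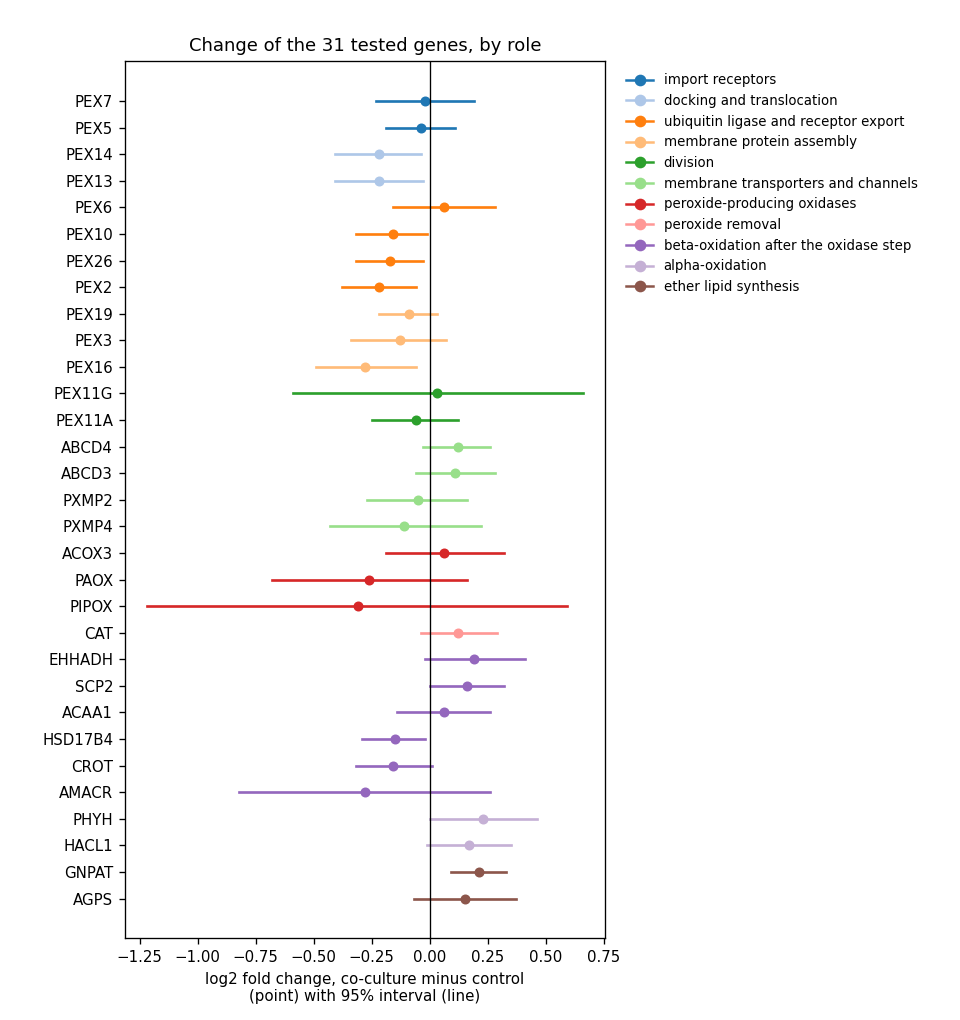
Log2 fold change of the 31 tested members, co-culture minus control (points), with the 95% interval of each (lines), ordered and coloured by role; n = 3 libraries in each group. Most peroxins lie left of 0, GNPAT at 0.21 has its whole interval right of 0, and PIPOX has the widest interval, from -1.22 to 0.59.

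The peroxins and the other members leaned in different directions, a split made after the values were seen. Of the 13 tested peroxins, 11 had a negative log2 fold change (84.6%, beside 50.4% of all genes) and their median was -0.13. Of the other 18 members 7 were negative (38.9%) and the median was 0.09. In the 15 other settings between 10 and 13 peroxins were negative, and under scaling by total counts the number was 12, where 57.6% of all genes were negative. No peroxin passed the test, and the difference between these lists was not tested.

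PEX5 and PEX7, the receptors that bring enzymes with the first and the second kind of targeting signal to the peroxisome, had group means that differed by less than the spread between libraries. The PEX5 CPM was 78.8, 72.8 and 74.8 in controls 1, 2 and 3 and 72.2, 69.0 and 78.3 in co-culture libraries 1, 2 and 3. Its log2 fold change was -0.04 (95% interval -0.19 to 0.11, edgeR adjusted p 0.741). For PEX7 the log2 fold change was -0.02 (95% interval -0.23 to 0.19, edgeR adjusted p 0.930), and the groups overlapped for both genes.

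Both genes of the docking complex had lower means in co-culture. PEX14, the membrane protein that the loaded receptors bind first, had 30.6, 29.5 and 27.5 CPM in controls 1 to 3 and 22.7, 25.3 and 26.8 CPM in co-culture libraries 1 to 3. All 3 controls lay above all 3 co-culture libraries, with control 3 and co-culture library 3 the closest pair. For PEX14 the log2 fold change was -0.22 (SE 0.08; edgeR adjusted p 0.145). PEX13, its partner in the membrane, had 32.5, 37.2 and 39.2 CPM in the controls and 33.4, 30.5 and 29.7 CPM in co-culture. Here the groups overlapped, since control 1 lay below co-culture library 1. The log2 fold change of PEX13 was -0.22 (SE 0.09, edgeR adjusted p 0.150) with control 1 and -0.30 (adjusted p 0.00832) without it. PEX13 passed in that 1 of the 15 other settings only, and its log2 fold change over them ran from -0.30 to -0.12.

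Of the 4 genes of the ubiquitin ligase and of receptor export, 3 had lower means in co-culture and PEX6 did not. PEX2, a ring-finger subunit of the ligase, had 24.8, 24.8 and 24.1 CPM in controls 1 to 3 and 21.6, 20.6 and 21.0 CPM in co-culture libraries 1 to 3. The groups were separate and each was tight, with 24.5 ± 0.394 against 21.1 ± 0.475 CPM (SD, n = 3 each). The log2 fold change was -0.22 (SE 0.07, edgeR adjusted p 0.105). PEX10, a further ring-finger subunit, had 30.5, 32.2 and 32.1 CPM in the controls and 29.4, 27.0 and 28.3 CPM in co-culture, again without overlap (log2 fold change -0.16, SE 0.07; adjusted p 0.194, edgeR). PEX10 was the 1 tested member with over 10% of its reads on the forward strand, 24.3% to 27.4% in the 6 libraries. In GENCODE release 29 its exons overlap those of RER1 on the opposite strand, and the counts used here separate the strands.

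PEX26 and PEX6 belong to the machine that pulls receptors out of the membrane, PEX6 as one of its ATPases and PEX26 as its anchor. PEX26 had 69.7, 80.3 and 78.2 CPM in controls 1 to 3 and 67.2, 66.8 and 68.4 CPM in co-culture libraries 1 to 3. The groups did not overlap, but control 1 lay nearer to the co-culture libraries than to the other controls. Its log2 fold change was -0.17 (SE 0.07, edgeR adjusted p 0.154), and without control 1 it was -0.23 (adjusted p 0.00676). PEX26 passed in that 1 of the 15 other settings only, with a range from -0.23 to -0.13 over them. PEX6 had 50.6, 39.1 and 39.3 CPM in the controls and 43.4, 43.6 and 47.4 CPM in co-culture. Control 1 was the highest of all 6 libraries and controls 2 and 3 were the lowest. The log2 fold change of PEX6 was 0.06 (SE 0.10, edgeR adjusted p 0.749), and 0.20 (adjusted p 0.0488) without control 1. PEX6 likewise passed in that 1 of the 15 other settings only, with a range from 0.00 to 0.20.

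Of the peroxins that place proteins in the peroxisomal membrane, PEX16 and PEX19 had groups that did not overlap. PEX16, which recruits PEX3, had 14.9, 13.6 and 14.9 CPM in controls 1 to 3 and 11.5, 12.6 and 11.7 CPM in co-culture libraries 1 to 3. The 3 co-culture libraries all lay below the 3 controls, and the log2 fold change of -0.28 (SE 0.10; adjusted p 0.119, edgeR) was the most negative among the peroxins in the reported fit, though PEX13 or PEX14 lay lower in some other settings. PEX19, the cytosolic chaperone and receptor of membrane proteins, had 112 to 124 CPM in the controls and 109 to 111 CPM in co-culture, with a log2 fold change of -0.09 (edgeR adjusted p 0.359). PEX3, the docking site for PEX19, had 30.7, 38.1 and 38.7 CPM in the controls and 34.3, 32.4 and 31.6 CPM in co-culture. Its control 1 was the lowest of the 6 libraries. The log2 fold change of PEX3 was -0.13 (edgeR adjusted p 0.421), and -0.23 (adjusted p 0.0242) without control 1. PEX3 passed in that 1 of the 15 other settings only, with a range from -0.23 to -0.07 over them. PEX11A and PEX11G, which shape the membrane for division, had log2 fold changes of -0.06 and 0.03 (adjusted p 0.698 and 0.960, edgeR). PEX11G was read at 1.82 ± 0.635 CPM in the controls and 1.80 ± 0.376 CPM in co-culture only (SD, n = 3 each), and its 95% interval ran from -0.59 to 0.66.

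**Figure D2:**
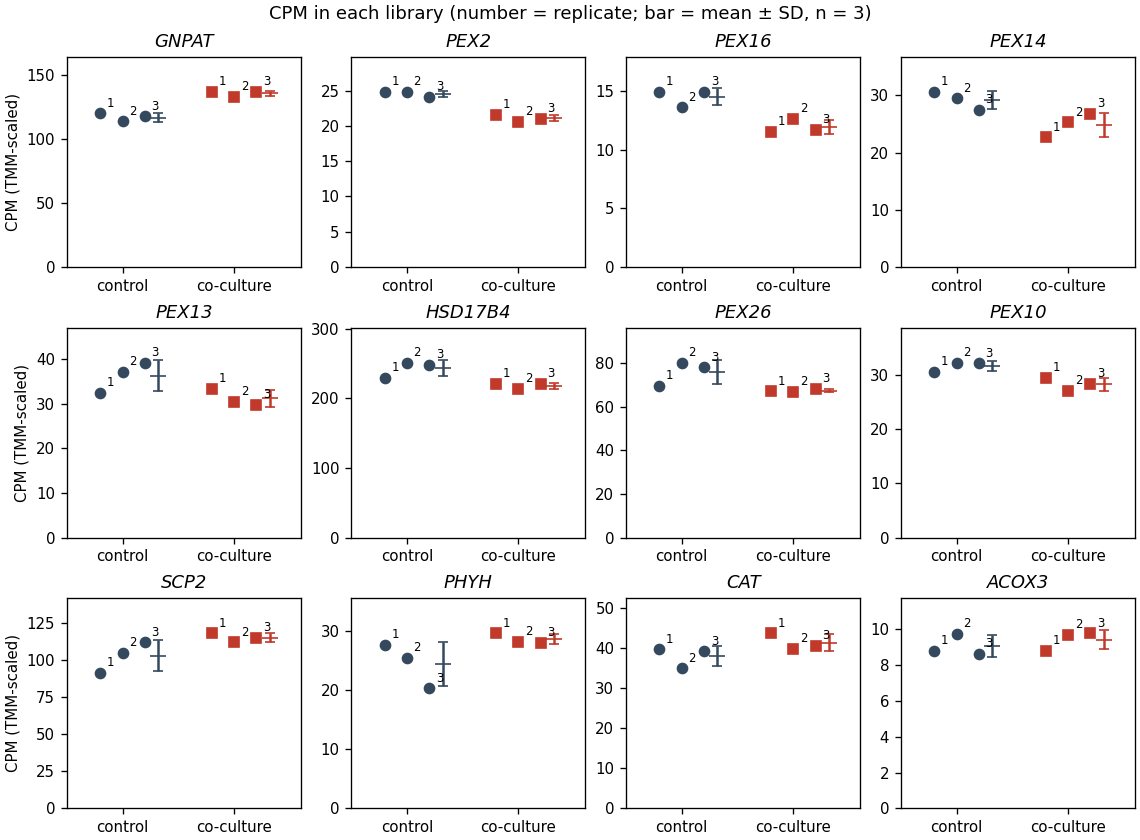
CPM, scaled by trimmed means of M-values, of 12 members in each control (circles) and co-culture (squares) library, numbered by replicate, with the mean ± SD of 3 libraries beside them; every axis starts at 0. GNPAT lies at 114 to 120.4 CPM in the controls and 133 to 137 CPM in co-culture, PEX2 and PEX16 are separated in the other direction, and ACOX3 overlaps.

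Of the 4 membrane transporters and channels, ABCD4 had groups that did not overlap. ABCD3, which moves long-chain acyl-CoA into the peroxisome, had 119, 144 and 144 CPM in controls 1 to 3 and 149, 148 and 143 CPM in co-culture libraries 1 to 3. Control 1 was the lowest library, and the other 5 lay close together. Its log2 fold change was 0.11 (95% interval -0.06 to 0.28, edgeR adjusted p 0.416), and 0.03 without control 1. ABCD4 is a relative best known for cobalamin export from lysosomes, and it had 37.7, 40.2 and 41.3 CPM in the controls and 42.2, 43.9 and 43.3 CPM in co-culture. All 3 co-culture libraries lay above the controls, with a difference of 0.12 on the log2 scale (edgeR adjusted p 0.317). PXMP2, a pore of the peroxisomal membrane, and PXMP4, a further membrane protein, had log2 fold changes of -0.05 and -0.11 (adjusted p 0.777 and 0.713, edgeR).

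Among the members, the oxidases that make hydrogen peroxide were read at low levels or not at all. For DAO, the oxidase of D-amino acids, all 6 libraries had 0 reads. A count of 0 allows up to 3 reads, or 0.0838 CPM in the deepest library and 0.156 CPM in the shallowest, for counting error only, and reads from a transgene of another sequence would not be counted there. DDO, the D-aspartate oxidase, had 3 reads in control 1 and 0 in the other 5 libraries. ACOX2, an acyl-CoA oxidase for branched chains and bile acid precursors, had 2, 0 and 5 reads in controls 1 to 3 and 1, 0 and 5 reads in co-culture libraries 1 to 3. Neither gene can be compared at this depth.

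ACOX3, a branched-chain acyl-CoA oxidase, was the best-read oxidase among the members. It had 8.79, 9.76 and 8.63 CPM in controls 1 to 3 and 8.81, 9.69 and 9.78 CPM in co-culture libraries 1 to 3. The groups overlapped almost fully, and the log2 fold change was 0.06 (SE 0.12; 95% interval -0.19 to 0.32, edgeR adjusted p 0.787). PAOX, which oxidises acetylated polyamines, had 5.16, 5.43 and 3.61 CPM in the controls and 3.50, 3.94 and 4.25 CPM in co-culture. Control 3 lay among the co-culture libraries, and the log2 fold change was -0.26 (SE 0.19, edgeR adjusted p 0.446). PIPOX, which oxidises pipecolate and sarcosine, had 21, 6 and 19 reads in the controls and 13, 13 and 17 reads in co-culture. That is 1.06, 0.313 and 0.729 CPM against 0.650, 0.618 and 0.475 CPM. For PIPOX the log2 fold change was -0.31 (SE 0.41, edgeR adjusted p 0.690) and its interval allows changes beyond 2-fold.

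CAT, the gene for catalase, which removes the peroxide that these oxidases make, had 39.7, 35.0 and 39.2 CPM in controls 1 to 3 and 43.7, 39.9 and 40.6 CPM in co-culture libraries 1 to 3. All 3 co-culture libraries lay above the controls, but control 1 and co-culture library 2 were nearly level. The log2 fold change was 0.12 (SE 0.07, 95% interval -0.04 to 0.29, edgeR adjusted p 0.347), which as a fold is 1.09 with an interval from 0.972 to 1.22. In the 15 other settings it ran from 0.07 to 0.20, and the adjusted p from 0.140 to 0.697.

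The enzymes that follow the oxidase in peroxisomal beta-oxidation were split in direction. HSD17B4, the bifunctional enzyme for branched and very long chains, had 229, 251 and 248 CPM in controls 1 to 3 and 221, 213 and 220.5 CPM in co-culture libraries 1 to 3. The co-culture libraries all lay below the controls. The log2 fold change of HSD17B4 was -0.15 (SE 0.06, edgeR adjusted p 0.152), and -0.19 (adjusted p 0.00971) without control 1. HSD17B4 passed in that 1 of the 15 other settings only, with a range from -0.19 to -0.13 over them. SCP2, whose gene also encodes the thiolase for branched chains, had 91.4, 105 and 112 CPM in the controls and 118, 112 and 115 CPM in co-culture. Control 3 and co-culture library 2 were level at this rounding, the other libraries did not overlap, and the log2 fold change was 0.16 (SE 0.07, edgeR adjusted p 0.219). EHHADH, the bifunctional enzyme for straight chains, and ACAA1, the thiolase for them, had log2 fold changes of 0.19 and 0.06 (adjusted p 0.268 and 0.719, edgeR). CROT, which makes carnitine esters of the shortened chains for export, stood at -0.16 (edgeR adjusted p 0.231), and AMACR, the racemase for branched acyl-CoA, at -0.28 (edgeR adjusted p 0.531). AMACR was read at 1.14 to 1.77 CPM only.

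Both genes for alpha-oxidation and both for ether lipids had positive log2 fold changes, as did 49.6% of all tested genes. None passed the test in the reported fit, and no lean of these 2 short lists was tested. The signs were the same in the 15 other settings, but these reuse the same libraries and are no separate support. GNPAT, the enzyme of the first step of ether lipid synthesis, had 120.4, 114 and 118 CPM in controls 1 to 3 and 137, 133 and 137 CPM in co-culture libraries 1 to 3. The groups were well apart, at 117 ± 3.45 against 136 ± 2.12 CPM (SD, n = 3 each). For GNPAT the log2 fold change was 0.21 (SE 0.05), a 1.16-fold higher level with a 95% interval from 1.06 to 1.26, and the edgeR adjusted p of 0.0520 missed the threshold. GNPAT passed in 3 of the 15 other settings. These were DESeq2 (adjusted p 0.0253), edgeR with DESeq2's size factors (0.0491) and edgeR without control 1 (0.00386), and the adjusted p over all 15 ran from 0.00386 to 0.341. AGPS, the enzyme of the next step, had 131, 164 and 176 CPM in the controls and 187, 166 and 172 CPM in co-culture. Control 1 was lowest and the other libraries overlapped (log2 fold change 0.15, SE 0.10; adjusted p 0.393, edgeR; 0.04 without control 1).

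PHYH, the hydroxylase that starts alpha-oxidation of phytanic acid, had 27.6, 25.4 and 20.3 CPM in controls 1 to 3 and 29.6, 28.2 and 28.0 CPM in co-culture libraries 1 to 3. The co-culture libraries were tight and lay above the controls, which were spread. For PHYH the log2 fold change was 0.23 (SE 0.11, edgeR adjusted p 0.220), and 0.33 (adjusted p 0.0148) without control 1. PHYH passed in that 1 of the 15 other settings only, with a range from 0.11 to 0.33 over them. HACL1, the lyase of the same pathway, had a log2 fold change of 0.17 (edgeR adjusted p 0.232), and its groups overlapped.

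Between genes, levels were compared per length, as CPM per kilobase of each gene's principal coding transcript in GENCODE release 29, which is not the authors' annotation. HSD17B4 had the highest median over the 6 libraries, 83.9 (range 79.4 to 93.4), followed by GNPAT at 48.0 (43.0 to 52.0) and ABCD3 at 40.7 (33.7 to 42.1). The ranges of these 3 genes did not meet. PXMP2, PEX19 and SCP2 came next at 33.1, 30.5 and 28.4, and their ranges overlapped. CAT stood at 17.3 (15.2 to 19.0), level with ACAA1 at 17.5 and PEX3 at 16.9. Among the peroxins PEX19 at 30.5 and PEX5 at 22.7 (21.2 to 24.2) were the highest and PEX11G at 1.52 the lowest. ACOX3 and PAOX stood at 3.23 and 2.2, with ranges of 3.02 to 3.42 and 1.89 to 2.92 that did not meet. PIPOX at 0.263 was the lowest of the tested members. These levels differ between genes far more than they differ between the groups.

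**Figure D3:**
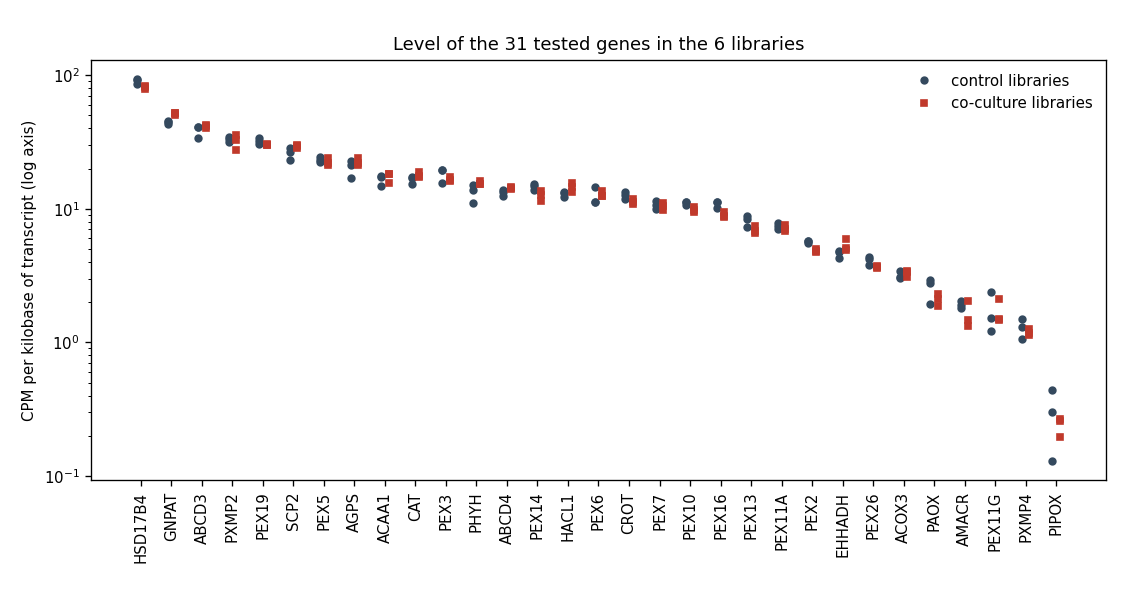
CPM per kilobase of transcript (log axis) of the 31 tested members in the 3 control (circles) and 3 co-culture (squares) libraries, ordered by the median over all 6. HSD17B4 lies near 83.9 and PIPOX near 0.263, and within nearly every gene the 2 groups lie close together.

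Outside the 34 members, 95 genes were listed for context: other oxidases, peroxisomal enzymes and membrane proteins, fission and turnover factors, nuclear receptors, and peroxide sources elsewhere in the cell. Of these, 78 were tested and 3 passed (3.85%, beside 4.83% of all genes), 2 higher and 1 lower. PPARA, the nuclear receptor that drives many peroxisomal genes in liver, fell from 57.7, 51.1 and 52.7 CPM in controls 1 to 3 to 40.3, 45.7 and 43.2 CPM in co-culture libraries 1 to 3, without overlap (a change of -0.32 on the log2 scale, with an SE of 0.07 and an edgeR adjusted p of 0.0364). FAR1, a reductase on the peroxisomal membrane that makes the fatty alcohols for the step after GNPAT, rose from 144, 157 and 161 CPM to 190.1, 190.3 and 175 CPM, without overlap (a change of 0.26 on the log2 scale, with an SE of 0.07 and an edgeR adjusted p of 0.0447). ERO1L, an oxidase of the endoplasmic reticulum that makes peroxide during protein folding, rose from 91.6, 104 and 95.2 CPM to 119, 116 and 117 CPM, without overlap (a change of 0.28 on the log2 scale, with an SE of 0.06 and an edgeR adjusted p of 0.0314).

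The sizes of these 3 differences held when a library was removed, and their adjusted p did not. Over the 6 such fits the log2 fold change ran from 0.24 to 0.33 for ERO1L, from -0.36 to -0.27 for PPARA and from 0.22 to 0.31 for FAR1. ERO1L kept an adjusted p under 0.05 in just 1 of the 6 fits with a library removed, the fit without control 1, and PPARA and FAR1 in 2, those without control 1 and without control 3. With the share of reads on the unexpected strand (2 classes) added as a term, the fit sets co-culture library 1 alone against the 3 controls, and 29 of all 14582 genes passed. There their log2 fold changes were -0.42, 0.30 and 0.30 for PPARA, FAR1 and ERO1L (edgeR adjusted p 0.216, 0.284 and 0.279).

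Of 4 other peroxisomal oxidases 1 was tested, and it did not pass. HAO1, a glycolate oxidase of liver, had 0 reads in all libraries. Of the other lists, 1 of 25 tested fatty acid and lipid enzymes (FAR1), 0 of 18 further matrix and membrane proteins, 0 of 9 fission and turnover factors, 1 of 7 nuclear receptors and coactivators (PPARA) and 1 of 18 peroxide sources outside the peroxisome (ERO1L) passed.

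Control 1 was the control farthest from the mean of the other 2 controls, on the log2 scale, for 17 of the 31 members (54.8%) and for 54.1% of all tested genes. The plot of calls under each setting shows the effect on the count. The 8 members that passed without it were GNPAT, PHYH and PEX6 (higher) and PEX13, PEX26, PEX3, HSD17B4 and CROT (lower). GNPAT alone among them passed in any other setting. With the strand share as a term 0 members passed in edgeR, where 0.199% of all genes did. In that fit 4 members (12.9%) had an unadjusted p under 0.05, beside 12.5% of all genes.

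**Figure D4:**
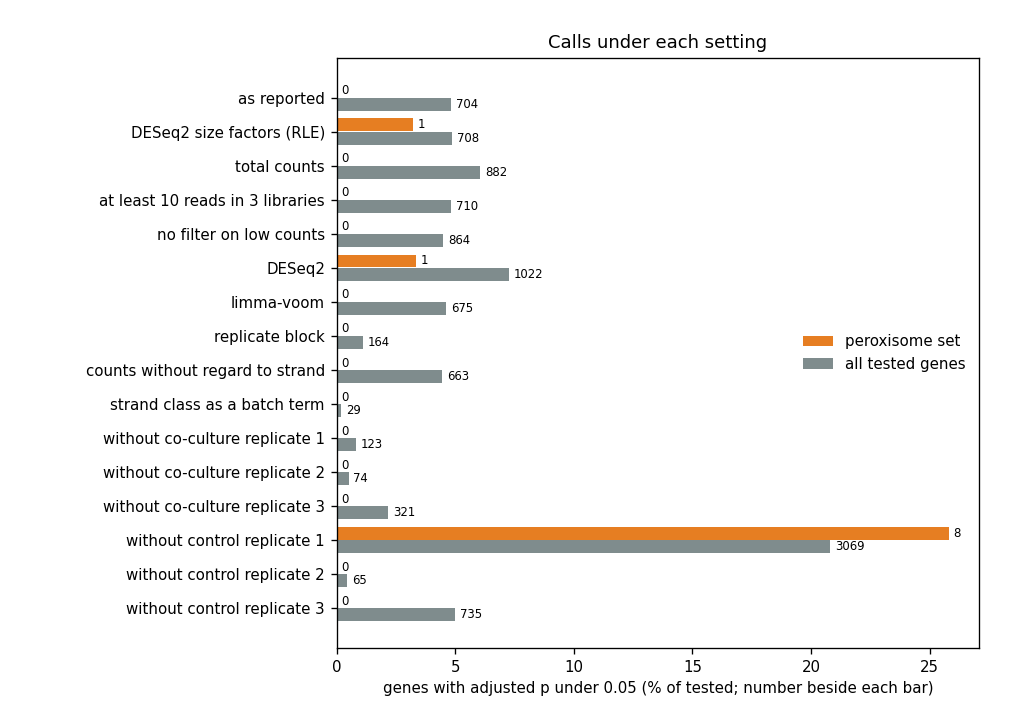
Share of tested genes with an adjusted p under 0.05 under the reported fit and each of 15 alternatives, for the peroxisome members (orange) and for all tested genes (grey), with the number of genes beside each bar. The members reach 8 genes (25.8%) without control 1 and at most 1 gene elsewhere.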

How the data were processed

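Messenger RNA was sequenced from 6 libraries with a stranded Illumina kit, per the labels' protocols. The authors deposited raw read counts per gene for each library, in the layout of STAR's gene counting. The submitters' processing notes name STAR 2.53a, FastQC and the build hg18. The annotation is not given in the sources used here, and no coordinate of the files is printed. Reverse-strand counts were used. The 4 summary lines, 24.2% to 28.5% of the reads, were left out. STAR does not count reads that map to several places or, on the same strand, to several genes.

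Groups came from the sample titles. Pairs of libraries within a group differed by a chi-square per degree of freedom of 4.73 to 18.5, so each counted as 1 sample. Genes were filtered with filterByExpr (minimum count 10), scaled by trimmed means of M-values (TMM) and fitted with group as the only term in edgeR 4.0.16 (R 4.3.3), with robust quasi-likelihood F tests and adjusted p-values at a threshold of 0.05 over 14582 genes. The filter removed 0.0473% of reads, and 1 read was worth 0.0279 to 0.0522 CPM. SEs are the absolute log2 fold change over the square root of F. DESeq2 1.42.0 and limma 3.58.1 (voom) were alternatives, with 13 others. The script was run on simulated data with planted changes of 2-fold, larger than that of any tested member. That run does not cover changes of the size reported here.

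The members, lists and tests were chosen with earlier results of these data known. Values by library were given for members in order of p up to 10, for CAT and for the oxidases, and for PEX5, PEX6, PEX3, ABCD3, ABCD4 and AGPS, which were added after their values were seen. Of the context genes, those past the threshold were named. A few further genes are not reported here.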

Additional observations from a re-analysis of the deposited data

How the results depend on the processing

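Members past the threshold numbered 0 in the reported fit, 1 with DESeq2's size factors and 1 in DESeq2, and 0 to 8 when each library was left out in turn. The context genes numbered 3, with 6 in DESeq2 and 6 without a filter on low counts, 0 with the replicate block, 0 with the strand share as a term, and 0 to 16 with a library left out. All genes numbered 704, with 164 under the replicate block, 29 with the strand share, and 65 (without control 2) to 3069 (without control 1). Total counts gave 310 higher and 572 lower genes in place of 388 and 316. The replicate numbers did not pair the samples: same-numbered libraries had correlations of -0.05, -0.11 and -0.12 between their deviations from the group means, and no library correlated best with its own number. In 1 or more settings 9 of the 31 tested members changed sign: ACOX3 with the strand share (-0.04), PIPOX without control 1 (0.04, the high end of a range from -0.63), PEX11G in 5 settings (-0.18 to 0.36), PEX7 and ACAA1 in 2 each, and PEX6, PXMP2, PXMP4 and AMACR in 1 each. The cause was not tested. The depth limits DAO, DDO, ACOX2, PIPOX, PEX11G and AMACR. Exons of AMACR also overlap those of C1QTNF3-AMACR on the same strand in GENCODE release 29. Other members have same-strand overlaps there too, among them PAOX, HSD17B4, SCP2, PEX19, PEX3 and PXMP2. The part of these overlaps in the reads of AMACR or of the others was not tested.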

Other observations

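DUOX2, a membrane oxidase that releases hydrogen peroxide outside the cell, was among the context genes and had too few reads for the test reported above. It is named after its values were seen. It had 16, 10 and 11 reads in controls 1 to 3 and 3, 2 and 4 reads in co-culture libraries 1 to 3, which is 0.809, 0.522 and 0.422 CPM against 0.150, 0.0950 and 0.112 CPM. All 3 controls lay above all 3 co-culture libraries, as they did for 15.0% of all tested genes. DUOX2 reached 10 reads in the 3 controls alone, and no test of it is given at this depth. The 6 context genes counted above without a filter on low counts include DUOX2, and its pass there is not used as support. LOX, which releases peroxide when it crosslinks collagen, had 54.2, 27.4 and 21.2 CPM in controls 1 to 3 and 67.4, 67.6 and 68.1 CPM in the co-culture libraries. The edgeR log2 fold change of LOX was 0.99 (SE 0.36, adjusted p 0.186) with control 1 and 1.49 (adjusted p 8.1e-08) without it. LOX passed in that 1 of the 15 other settings only, where 20.8% of all genes passed, and its log2 fold change over them ran from 0.73 to 1.49. MAOA, from the same list of peroxide sources, went the other way (log2 fold change -0.41, SE 0.11, edgeR adjusted p 0.0609). It passed in 4 of the 15 other settings, with a range from -0.54 to -0.28. LOX and MAOA too are named after their values were seen. Of the 18 tested peroxide sources outside the peroxisome, 11 had a positive log2 fold change (61.1%, beside 49.6% of all tested genes) and 7 a negative one. Their median was 0.05, and no lean of the list was tested.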
